A study of Mus musculus with 16 samples.

Results

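Trace amine-associated receptors (Taars) of the Taar7 and Taar8 subfamilies were followed in sorted cells of the mouse olfactory mucosa. The members were taken by their symbols in the platform annotation, namely Taar7a, Taar7b, Taar7d, Taar7e, Taar7f, Taar8a, Taar8b and Taar8c. All 8 were found, each on 1 probe set, among 19505 genes on the array. The series has 16 samples in 4 groups of 4, which are GFP+ and GFP- cells of indole/ionone-stimulated mice (odor) and GFP+ and GFP- cells of vehicle-stimulated mice given filtered air. The ionone isomer and the odor doses are not given in the sources used. Every mouse, also in the vehicle arm, carried S100a5-tauGFP, a reporter in which S100a5, a gene of active sensory neurons, provides the promoter for a green fluorescent protein. The 24 mice of both sexes were 7 to 12 weeks old and sat singly in clean-air chambers for 40 hours, with pulses of 10 seconds every 20 minutes from hour 26. Cells of 3 mice were pooled before sorting, which gave 4 pools per arm with a GFP+ and a GFP- sample each, so a value describes a pool and not a mouse. Values are log2 levels on Clariom S arrays, on which a difference of 1 is a doubling.

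Taars are G protein-coupled receptors. All of them except Taar1 serve as olfactory receptors, mainly for volatile amines, and a mature sensory neuron typically expresses a single receptor gene from the odorant receptor or the Taar family. Taar neurons signal through the same olfactory G protein and adenylyl cyclase as most other sensory neurons. In the mouse the Taar7 and Taar8 subfamilies are sets of closely related gene copies, and Taar7f is known to respond to N-methylpiperidine. S100a5 is switched on by neuronal activity, and the sort on GFP divides cells by the activity of its promoter.

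The genes lie side by side on chromosome 10. In the RefSeq gene order of GRCm38.p6 the 5 Taar7 genes follow Taar6, the 3 Taar8 genes come next, and Taar9 ends the cluster. The pseudogene Taar7c-ps lies between Taar7b and Taar7d and was not among the members. The 5 Taar7 gene models are 1077 bases long, and those of Taar8a and Taar8b 1035 bases, which are multiples of 3, as for coding sequence without untranslated ends. That of Taar8c is 1109 bases long, which is no multiple of 3. RefSeq windows of 300 bases, with 250 before and 50 from the annotated start, were at hand for 6 of the 8 members, all but Taar8a and Taar8c. In all 6 the annotated start was the ATG of the coding sequence. The first 50 coding bases are shown because they tell how near the copies are to each other over this stretch. Capitals mark bases that differ from Taar7e at the same position, and positions were compared without gaps.
Taar7a: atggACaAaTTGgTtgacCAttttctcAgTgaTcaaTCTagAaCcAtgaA
Taar7b: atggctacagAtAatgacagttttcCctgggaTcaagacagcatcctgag
Taar7d: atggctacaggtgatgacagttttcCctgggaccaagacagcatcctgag
Taar7e: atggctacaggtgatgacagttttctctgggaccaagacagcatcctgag
Taar7f: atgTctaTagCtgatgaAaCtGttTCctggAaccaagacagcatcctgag
Taar7d had 49 of 50 bases in common with Taar7e, Taar7b had 46, Taar7f 41 and Taar7a 31. Taar8b shared 13 of 50 with Taar7e.

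The Taar7d and Taar7e windows are shown whole. This pair is the most alike among the 6 members with windows and was measured on opposite sides of the gate. Capitals mark the first 50 bases of the coding sequence.
Taar7d, GRCm38.p6 chr10:24026972-24027271, plus strand: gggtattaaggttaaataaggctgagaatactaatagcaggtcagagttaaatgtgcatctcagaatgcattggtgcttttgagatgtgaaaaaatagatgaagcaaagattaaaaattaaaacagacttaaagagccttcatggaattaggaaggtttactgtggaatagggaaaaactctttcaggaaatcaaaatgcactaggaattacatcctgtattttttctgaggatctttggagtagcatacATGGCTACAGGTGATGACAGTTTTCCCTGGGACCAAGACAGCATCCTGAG
Taar7e, GRCm38.p6 chr10:24037364-24037663, plus strand: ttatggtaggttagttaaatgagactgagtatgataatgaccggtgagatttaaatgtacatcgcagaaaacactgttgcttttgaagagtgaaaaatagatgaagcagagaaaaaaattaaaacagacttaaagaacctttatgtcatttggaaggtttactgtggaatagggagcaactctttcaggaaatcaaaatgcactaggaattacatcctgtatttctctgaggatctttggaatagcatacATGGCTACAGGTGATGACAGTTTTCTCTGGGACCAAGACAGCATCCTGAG
In a global alignment of the 250 bases before the start, Taar7d and Taar7e were identical at 211 of 253 aligned columns (83.4%). Taar7d and Taar7f were identical at 77.6% of columns and Taar7e and Taar7f at 73.7%. Pairs of these with Taar7b reached 53.6% to 57.2%. Both strands of the 250 bases were searched for TATAAA, found in Taar7a, Taar7b, Taar7f and Taar8b, against 12.4% of 32851 RefSeq windows. The letters TAATTA, a homeodomain core, were found in Taar8b, against 4.84% of all windows. The letters CCCNNGGG, a core bound by Ebf factors, were found in 0 of the 6, against 11.8% of all windows. The searches were independent, so matches of different motifs may overlap. Because the windows of the members start from the ATG, they need not hold the transcription start. Whether the other RefSeq windows also start from an ATG was not checked, so the shares may set unlike stretches side by side. The array's probe sequences were not used here, so whether a probe set tells nearly identical copies apart was not tested, and the values of Taar7d, Taar7e and the other close copies are uncertain to that extent.

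Array medians ran from 6.05 to 6.39, and 23 background probes gave a median of 5.63 to 6.05 per array, which served as the background level. Single background probes ran from 2.3 to 7.9, so a level above this median may still lie within their range. S100a5 was higher in GFP+ cells by 1.31 ± 0.17 in odor pools (SE, adjusted p = 0.000184) and by 1.27 ± 0.17 in vehicle pools (adjusted p = 0.000228). Markers of other cell types were mostly lower in GFP+ cells. The 6 listed neutrophil genes fell in both arms, with log2 summed levels of 8.05 to 9.91 in GFP+ and 18.04 to 19.32 in GFP- cells of odor pools, and of 8.30 to 9.52 and 17.95 to 19.39 in vehicle pools. Also lower in both arms were 4 of 4 globose basal or dividing cell, 4 of 4 microvillar, 4 of 4 lymphocyte, 3 of 3 erythroid and 4 of 6 sustentacular markers, with macrophage markers at 3 of 6 in odor and 5 of 6 in vehicle pools. Of 3 ensheathing glia markers 1 was lower in odor and 0 in vehicle pools. Mature sensory neuron markers had log2 summed levels of 20.89 to 20.92 in GFP+ and 20.74 to 20.82 in GFP- cells of odor pools and of 20.89 to 20.91 and 20.41 to 20.87 in vehicle pools. Of these 9 markers only the chloride channel gene Ano2 passed the test in either arm, by 0.44 in odor and 0.38 in vehicle pools. Y-chromosome transcripts lay at 2.76 to 4.09 in odor replicate 3 and vehicle replicate 3, against 6.42 to 12.09 in the other pools. Values without both are given where a call or a sign changed.

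Taar7 receptors split by the reporter gate in both directions. In odor pools Taar7b and Taar7e were higher in GFP+ cells, and Taar7a, Taar7d and Taar7f were lower. The same directions were measured in all 8 pools for each of the 5 genes. In vehicle pools Taar7e passed the test on the higher side and Taar7a, Taar7d and Taar7f on the lower side, while Taar7b did not pass. With the Taar8 genes included, 4 members were higher and 3 lower in GFP+ cells of odor pools, where 7.96% of all 19505 genes tested were called higher and 10.6% lower, 18.6% in all. In vehicle pools 2 members were higher and 3 lower, against 8.86% and 10.8% of all genes, 19.7% in all. Odorant receptor genes were called far more often than all genes as well. Of 1091, 471 were higher and 251 lower in odor pools, and 470 and 279 in vehicle pools. A split by the gate was therefore not particular to these members. The split over all genes moved with the scaling. Of the calls in odor pools 42.9% were higher as deposited, 78.5% with every array centred on its median and 20.1% with centring on mature neuron markers, and in vehicle pools 45.1%, 67.6% and 22.2%. The median of all genes was 0.11, 0.34 and -0.08 in odor pools under these scalings and 0.11, 0.26 and -0.08 in vehicle pools. The directions of Taar7a, Taar7b, Taar7d, Taar7e, Taar7f and Taar8a were the same under each. A change of level in these bulk samples can be fewer cells of a type or less RNA per cell, which cannot be told apart.

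Taar7e, the copy with the largest difference on the higher side in odor pools, had levels of 8.92, 10.09, 10.12 and 9.46 in GFP+ cells of odor replicates 1 to 4, against 7.61, 8.48, 8.52 and 8.31 in GFP- cells. Each GFP+ sample lay above each GFP- sample. The mean within-pool difference was 1.42 ± 0.15 (SE, n = 4 pools), 2.67-fold, with adjusted p = 2.59e-05. In vehicle replicates 1 to 4 Taar7e was at 9.66, 9.37, 9.67 and 9.51 in GFP+ cells, against 8.35, 8.56, 8.57 and 8.77 in GFP- cells. Again the fractions did not overlap, and the difference was 0.99 ± 0.15 (n = 4 pools), 1.99-fold, with adjusted p = 0.000432.

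Taar7b was at 10.95, 11.82, 12.07 and 11.89 in GFP+ cells of odor pools, against 10.64, 10.69, 10.43 and 9.91 in GFP- cells. The fractions did not overlap, although odor replicate 1 showed a difference of 0.32 and replicate 4 one of 1.98. The mean was 1.27 ± 0.25, 2.41-fold (adjusted p = 0.00357). In vehicle pools Taar7b had levels of 11.01, 11.55, 11.28 and 11.86 in GFP+ cells, against 10.86, 11.04, 10.57 and 10.67 in GFP- cells. Here the fractions overlapped, since GFP+ cells of replicate 1 lay just under GFP- cells of replicate 2. The difference of 0.64 ± 0.25 did not pass (adjusted p = 0.0995), with 4 of 4 pools above 0. It passed with median centring, at 0.79 (adjusted p = 0.0359), and without odor replicate 1, which enters through the shared variance (adjusted p = 0.0451).

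Taar7a had the largest difference on the lower side among the 8 genes. Its levels were 5.38, 6.31, 6.39 and 5.88 in GFP+ cells of odor pools, against 7.56, 8.08, 7.31 and 8.41 in GFP- cells. The fractions did not overlap, and GFP+ cells lay above the background median in 2 of 4 samples. The difference was -1.85 ± 0.22 (adjusted p = 9.85e-05), and -1.72 with values raised to the background median. In vehicle pools Taar7a was at 6.43, 5.84, 5.72 and 6.21 in GFP+ cells, against 9.04, 8.09, 7.67 and 8.38 in GFP- cells. GFP+ cells were again above background in 2 of 4 samples, so in both arms the size of the difference, here -2.24 ± 0.22 (adjusted p = 2.02e-05), is limited by the background.

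Taar7f was measured well over background on all 16 arrays. It was at 8.93, 8.35, 8.34 and 8.43 in GFP+ cells of odor pools, against 9.95, 9.54, 9.57 and 10.35 in GFP- cells. In vehicle pools it was at 9.05, 8.48, 7.89 and 8.41 in GFP+ cells, against 9.76, 10.24, 9.24 and 10.12 in GFP- cells. In both arms each GFP+ sample was under each GFP- sample. The differences were -1.34 ± 0.20 in odor pools (adjusted p = 0.000471) and -1.38 ± 0.20 in vehicle pools (adjusted p = 0.000366), which differ by less than their errors.

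Taar7d showed the smallest of the differences on the lower side. Levels in odor pools were 8.46, 9.11, 8.70 and 8.83 in GFP+ cells, against 9.12, 9.85, 9.39 and 10.06 in GFP- cells. In vehicle pools they were 8.69, 9.06, 8.11 and 9.04 in GFP+ cells, against 9.44, 9.98, 9.40 and 9.44 in GFP- cells. The fractions were apart in both arms, in odor pools by a narrow margin. The differences were -0.83 ± 0.17 in odor pools (adjusted p = 0.00398) and -0.84 ± 0.17 in vehicle pools (adjusted p = 0.00354).

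**Figure D1:**
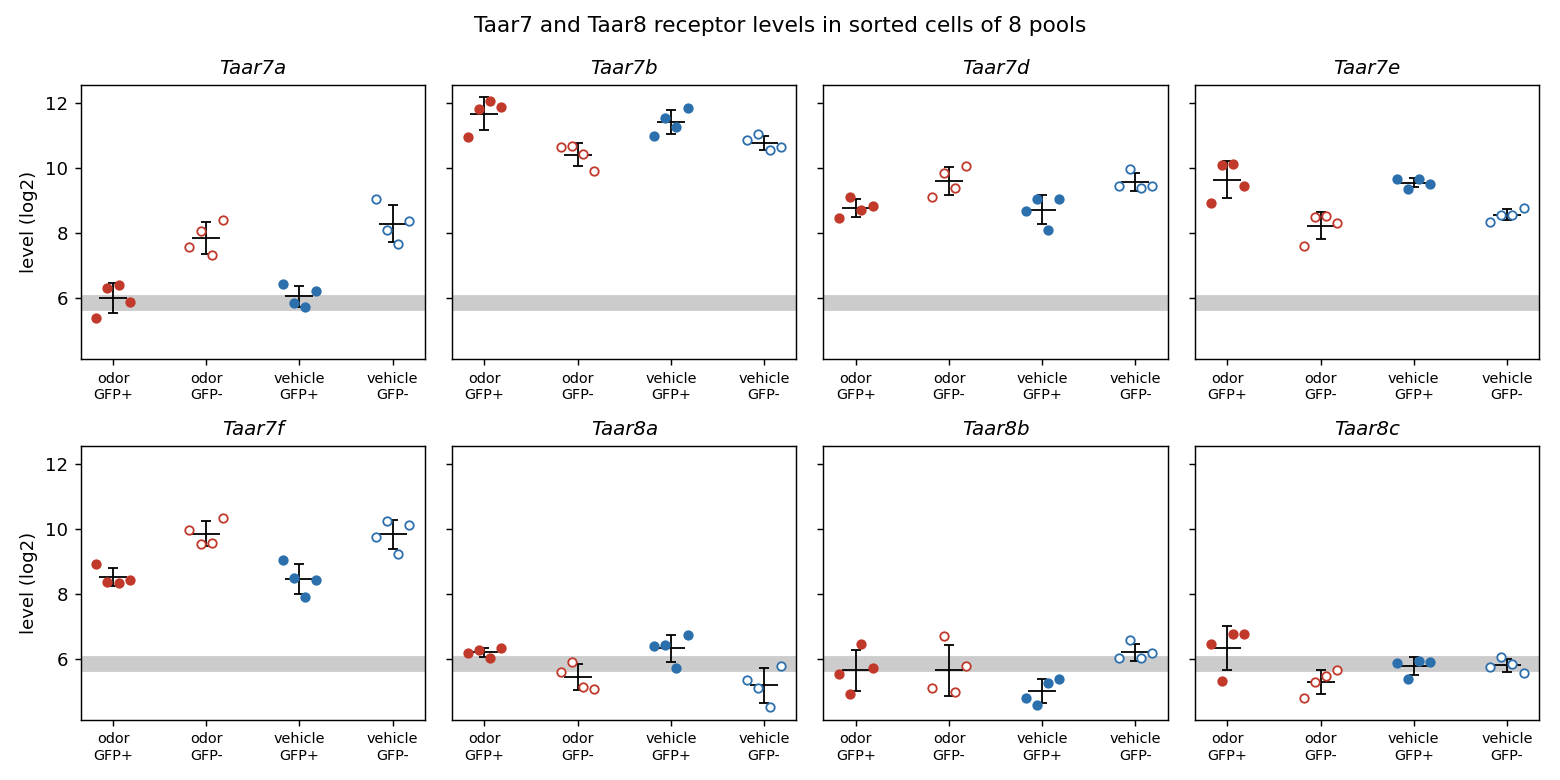
Log2 level of each receptor (vertical axis) in each sample, by group, with filled points for GFP+ and open points for GFP- cells, red for odor and blue for vehicle, black bars for mean ± SD (n = 4) and a grey band for the array medians of background probes (5.63 to 6.05). Taar7b and Taar7e lie higher and Taar7a, Taar7d and Taar7f lower in GFP+ cells, and the Taar8 genes lie near the grey band.

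Set side by side within pools, Taar7d and Taar7e, nearly identical over the first 50 coding bases, were on opposite sides in 8 of 8 pools. The within-pool difference of Taar7e exceeded that of Taar7d by 1.14 to 2.40 log2 units, with a median of 2.18. It exceeded that of Taar7f by 2.03 to 3.07 and that of Taar7a by 2.52 to 3.93. The difference of Taar7b exceeded that of Taar7d by 0.89 to 3.21 and that of Taar7f by 0.85 to 3.90. Taar7d shared 49 of 50 coding bases with Taar7e, as printed above, and lay on the same side as Taar7f, with which it shared 42.

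Taar8 receptors were measured near the background. Of 16 arrays each, Taar8a lay above the background median on 8, Taar8b on 6 and Taar8c on 7, while Taar7b, Taar7d, Taar7e and Taar7f did so on all 16. Differences among such low values are partly called as well. Of the 6852 genes that lay under the background median on all arrays, 3.28% were called higher and 3.66% lower in GFP+ cells of odor pools, and 2.79% and 3.87% in vehicle pools.

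Taar8a was higher in GFP+ cells in 8 of 8 pools. It was at 6.18, 6.26, 6.01 and 6.31 in GFP+ cells of odor pools, against 5.60, 5.90, 5.12 and 5.06 in GFP- cells. The fractions did not overlap, and the difference was 0.77 ± 0.16 (adjusted p = 0.00525). When values under the background median were raised to it, the difference was 0.32 and no longer passed (adjusted p = 0.0723). In vehicle pools Taar8a was at 6.40, 6.42, 5.72 and 6.72 in GFP+ cells, against 5.35, 5.09, 4.50 and 5.78 in GFP- cells. Here the fractions overlapped, since GFP+ cells of replicate 3 lay under GFP- cells of replicate 4. All GFP- samples lay under the background, with 3 of 4 GFP+ samples above it. The fitted difference was 1.14 ± 0.16 (adjusted p = 0.000310), and 0.49 with values raised to the background median (adjusted p = 0.00947). The GFP+ mean in vehicle pools was 1.38-fold the mean background median of the GFP- arrays, an estimate given without an interval.

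Taar8c was at 6.46, 5.32, 6.76 and 6.77 in GFP+ cells of odor pools, against 4.79, 5.28, 5.46 and 5.65 in GFP- cells. GFP+ cells of odor replicate 2 lay among the GFP- samples, with a within-pool difference of 0.04, against 1.12 to 1.67 in the other pools. All GFP- samples lay under the background, as did GFP+ cells of replicate 2. The GFP+ mean was 1.43-fold the mean background median of the GFP- arrays, an estimate given without an interval. The mean within-pool difference was 1.03 ± 0.24 (adjusted p = 0.0120). This call ended without odor replicate 1 (0.82, adjusted p = 0.0712), without odor replicate 3 (0.94, adjusted p = 0.0586), without the third pool of both arms (0.94, adjusted p = 0.0789) and with variances that were not moderated (adjusted p = 0.0723). In vehicle pools Taar8c was at 5.88, 5.36, 5.93 and 5.91 in GFP+ cells, against 5.75, 6.04, 5.85 and 5.55 in GFP- cells. The fractions overlapped there, with a difference of -0.03 ± 0.24 and a 95% interval of -0.57 to 0.51 (adjusted p = 0.953).

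Taar8b varied most between pools. It was at 5.52, 4.90, 6.45 and 5.70 in GFP+ cells of odor pools, against 5.09, 6.71, 4.99 and 5.78 in GFP- cells. The pools went both ways, from -1.80 in replicate 2 to 1.47 in replicate 3, around a mean of 0.00 ± 0.40. In vehicle pools Taar8b was at 4.79, 4.58, 5.25 and 5.38 in GFP+ cells, all under the background, against 6.03, 6.56, 6.01 and 6.18 in GFP- cells, all above it. The 4 vehicle pools agreed in direction and the fractions did not overlap, yet with the variance shared with the odor pools the difference of -1.20 ± 0.40 did not pass (adjusted p = 0.0598). It passed without odor replicate 2 (adjusted p = 0.00921), without odor replicate 3 (adjusted p = 0.0287) and with the pools as a random block (adjusted p = 0.0168), and did not pass with values raised to the background median (-0.36, adjusted p = 0.248). The GFP- mean was 1.28-fold the mean background median of the GFP+ arrays, an estimate given without an interval.

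**Figure D2:**
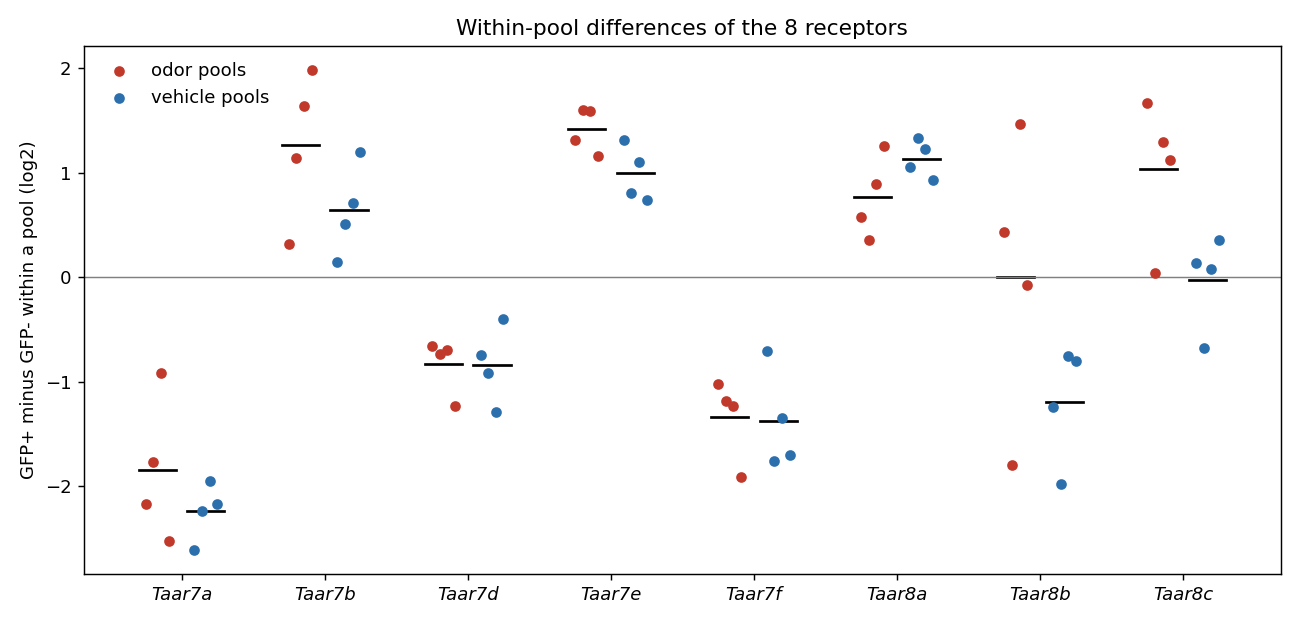
GFP+ minus GFP- log2 difference within each pool (vertical axis) for the 8 receptors, with red points for odor and blue points for vehicle pools in order of replicate and black lines for arm means. All 8 pools of Taar7b, Taar7e and Taar8a lie above 0, all 8 of Taar7a, Taar7d and Taar7f lie under 0, and Taar8b runs from -1.98 to 1.47.

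Because non-neuronal markers differed so much between the fractions, the values were also set relative to mature neuron markers. In each group 1 of the 9 markers lay under the background median on all arrays. Omp lay at 18.11 to 18.51, on arrays whose highest values were 18.68 to 19.35. How well such centring adjusts for neuron content was not tested. With every array centred on the mean of its 9 mature sensory neuron markers, 7 members were called in odor pools and 6 in vehicle pools, the sixth being Taar8b (-1.39, adjusted p = 0.0354). In odor pools Taar7e was then at 1.22, Taar7b at 1.07, Taar7a at -2.04, Taar7d at -1.03 and Taar7f at -1.54, each with its call. Immature sensory neuron markers were lower in GFP+ cells in 4 of 6 in both arms, with log2 summed levels of 16.09 to 16.23 in GFP+ and 16.25 to 16.57 in GFP- cells of odor pools and of 15.98 to 16.16 and 16.31 to 16.50 in vehicle pools. The median difference of the 6 markers was larger than these sums show, at -3.09 in odor and -3.43 in vehicle pools. In odor pools Nhlh1 was at -4.97, Gng8 at -4.44, Dpysl3 at -3.80 and Gap43 at -2.38, while Stmn2 (-0.20) and Tubb3 (-0.01) did not pass. The part of immature neurons in the lower levels of Taar7a, Taar7d and Taar7f was not tested.

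Whether the odor moved the receptors between the gates is the question of the design. None of the 8 members passed in any of the 3 comparisons of odor with vehicle by limma. For the enrichment difference 0% of all genes were called, with 654 genes and 1 member at an unadjusted p under 0.05. In GFP+ cells 0% were called, with 1070 genes and 0 members at that level, and in GFP- cells 0.00513%, with 697 genes and 1 member. The within-pool differences of the arms overlapped for Taar7a, Taar7b, Taar7d, Taar7e, Taar7f, Taar8a, Taar8b and Taar8c.

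Intervals differed in width between the members. For Taar7d, the enrichment in odor pools minus that in vehicle pools was 0.01 (95% interval -0.50 to 0.53), and for Taar7f it was 0.04 (-0.57 to 0.66). A doubling lies outside both. Taar7e differed by 0.42 (-0.03 to 0.88), Taar7b by 0.63 (-0.15 to 1.40), Taar7a by 0.40 (-0.30 to 1.09) and Taar8a by -0.37 (-0.86 to 0.13). With 1 pool left out, the value of Taar7a ran from 0.09 (without odor replicate 3) to 0.62 (without odor replicate 4), that of Taar7b from 0.39 (without odor replicate 4) to 0.94 (without odor replicate 1), and that of Taar8a from -0.53 (without odor replicate 4) to -0.23 (without odor replicate 2). The largest values were those of Taar8b at 1.20 (-0.05 to 2.45) and Taar8c at 1.06 (0.30 to 1.82). Without 1 pool, Taar8b ran from 0.71 (without odor replicate 3) to 1.80 (without odor replicate 2) and Taar8c from 0.84 to 1.39. Taar8c had an unadjusted p = 0.0110 and adjusted p = 1.00, and its levels lay near the background in all 4 groups.

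Within GFP+ cells the Taar7 levels after odor and after vehicle were close. Taar7b averaged 11.68 ± 0.50 after odor and 11.43 ± 0.37 after vehicle (SD, n = 4 each), Taar7e 9.65 ± 0.57 and 9.56 ± 0.14, Taar7d 8.77 ± 0.27 and 8.72 ± 0.44, and Taar7f 8.51 ± 0.28 and 8.46 ± 0.48. The differences of the 5 Taar7 genes ran from -0.06 to 0.26, with intervals that lay between -0.58 and 0.82. Larger differences were fitted for Taar8b, which averaged 5.64 ± 0.64 after odor and 4.999 ± 0.38 after vehicle (0.65, unadjusted p = 0.0538 by limma, adjusted p = 0.910), and for Taar8c, at 6.33 ± 0.69 and 5.77 ± 0.27 (0.56, unadjusted p = 0.0887, adjusted p = 0.927). For Taar8b, 1 of 4 odor samples and 0 of 4 vehicle samples of GFP+ cells lay above the background median. With values raised to that median, its difference was 0.23. Taar8a differed by -0.13 (-0.56 to 0.31). In GFP- cells Taar7b averaged 10.42 ± 0.36 after odor and 10.78 ± 0.21 after vehicle, a difference of -0.37 (-0.81 to 0.08), and Taar7a 7.84 ± 0.50 and 8.29 ± 0.58, a difference of -0.46 (-1.15 to 0.24). Taar8c had the lowest unadjusted p of the members in GFP- cells, 0.0329 (-0.50, adjusted p = 1.00), with all 4 odor samples and 3 of 4 vehicle samples under the background median.

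**Figure D3:**
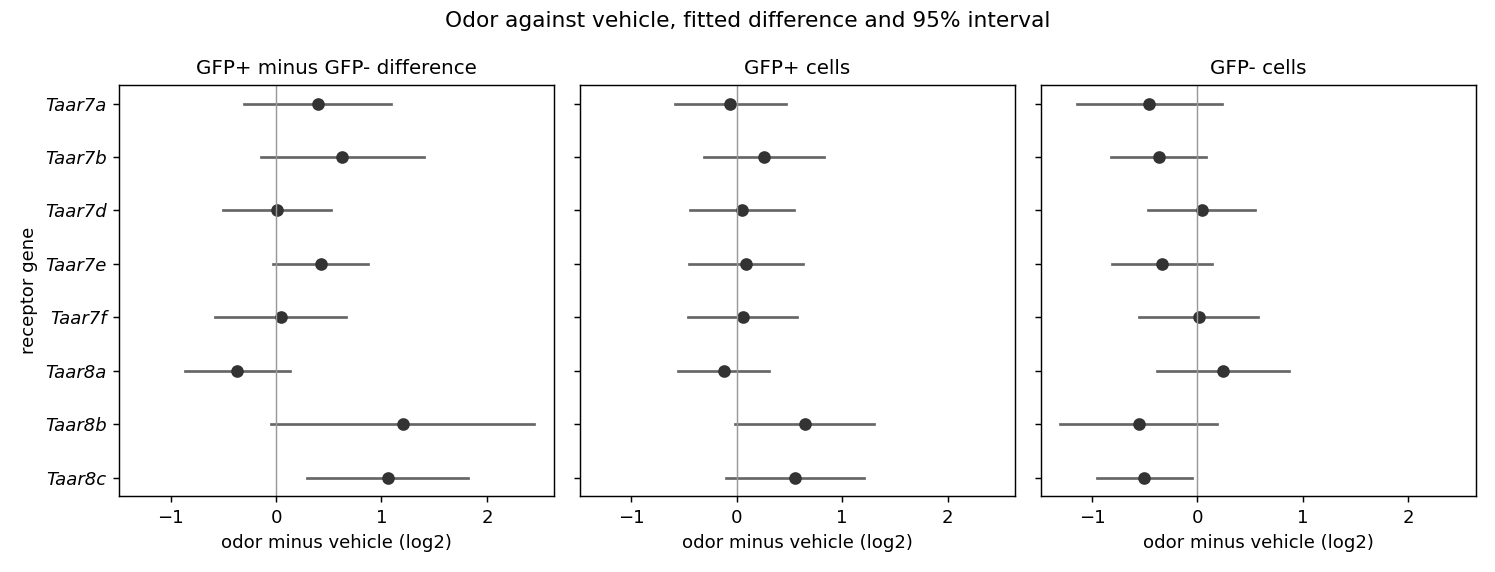
Fitted odor minus vehicle difference on the log2 scale (horizontal axis) for each receptor, with 95% intervals as lines, for the GFP+ minus GFP- enrichment, GFP+ cells and GFP- cells (4 pools against 4). Most intervals hold 0, with Taar8c outside it for the enrichment (0.30 to 1.82) and for GFP- cells (-0.95 to -0.05), and no receptor passed after adjustment over all genes.

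Along the cluster both subfamilies stood between receptors with larger differences. Among the other 7 Taar genes, 4 were higher in GFP+ cells, 2 lower and 1 not called, in both arms. One of the 4 was Taar5, at 0.65 in odor and 0.83 in vehicle pools, which lay under the background median on all 16 arrays. Taar9, the next gene after Taar8c, differed by 2.97 ± 0.27 in odor and 3.11 ± 0.27 in vehicle pools, and Taar6, just before Taar7a, by -3.06 ± 0.39 and -3.00 ± 0.39. Differences of those 7 genes ran from -4.75 to 3.01 in odor pools, and those of the 8 members from -1.85 to 1.42. Neighbours in the gene order were often on opposite sides, as Taar7a and Taar7b, Taar7d and Taar7e, and Taar7e and Taar7f were in all 8 pools. Of the genes flanking the cluster, Vnn1, Vnn3 and Stx7 did not pass in either arm, Moxd1 was lower in both (-1.51 and -2.18), and Slc18b1 was called higher in vehicle pools (1.08, against 0.79 in odor pools, adjusted p = 0.0916).

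**Figure D4:**
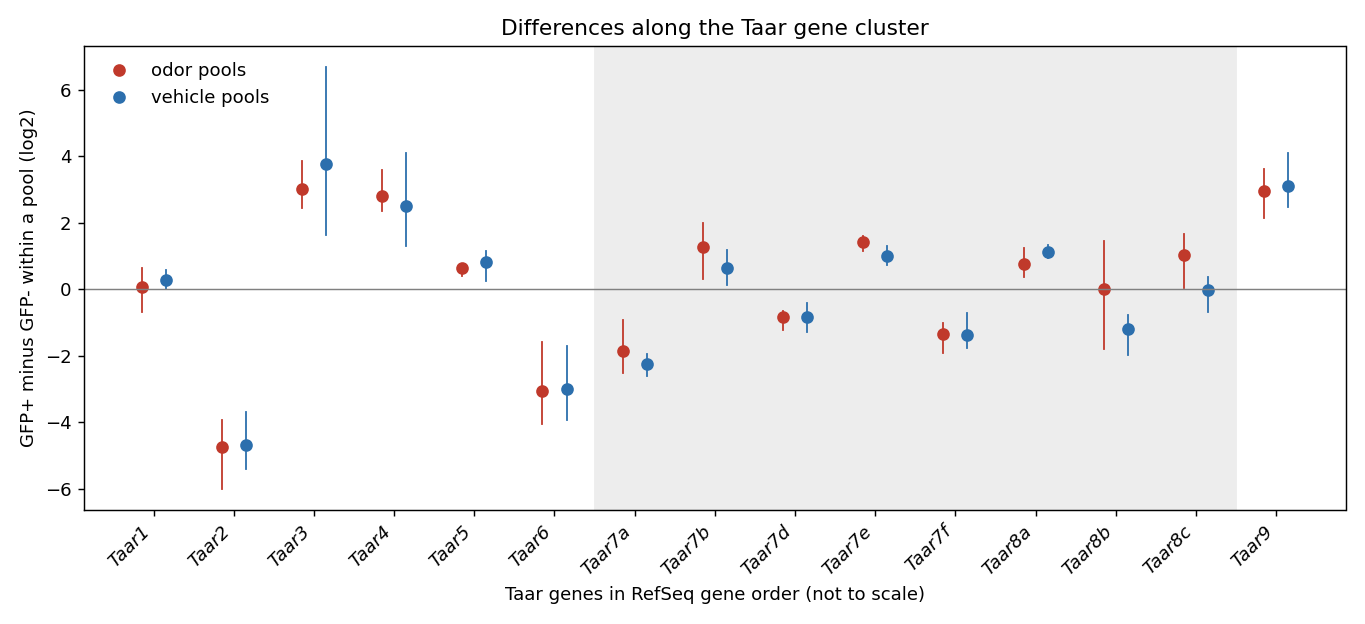
GFP+ minus GFP- log2 difference (vertical axis) of the 15 Taar genes in RefSeq order along chromosome 10, with points for arm means and lines for the range over 4 pools, red for odor and blue for vehicle. The shaded Taar7 genes alternate around 0 from Taar7a to Taar7f, Taar8a lies above 0 in both arms, and the shaded genes stand between Taar6, near -3.0 in both arms, and Taar9, at 2.97 and 3.11.

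Transduction and receptor expression genes belong to the machinery that Taar neurons share with other sensory neurons. They were called about as often as, or more often than, the 18.6% and 19.7% of all genes in odor and vehicle pools. Of 20 measured transduction and receptor expression genes, 2 were higher and 2 lower in GFP+ cells of odor pools, with Pde1c, a calcium-dependent phosphodiesterase, at 0.67 and Gnas, a stimulatory G protein gene of many tissues, at -3.97. In vehicle pools 4 were higher, led by the phosphodiesterase gene Pde4a at 0.64, and 2 lower. Of 17 genes listed as regulators of receptor choice, 0 were higher and 1 lower in each arm, a smaller share than over all genes. The gene called was Lbr, the lamin B receptor, at -1.62 in odor and -1.71 in vehicle pools. The zonal markers Acsm4 and Nqo1 (dorsal) and Ncam2 and Nrp2 (ventral) did not pass in either arm, with differences from -0.08 to 0.31. Of 1091 odorant receptor genes, 471 were higher and 251 lower in odor pools and 470 and 279 in vehicle pools, with medians of 0.43 and 0.38, beside 0.11 in both arms over all genes. The median of the Taar7 genes was -0.83 in odor and -0.84 in vehicle pools, and that of the Taar8 genes 0.77 and -0.03. The Taar7 median is the value of Taar7d and describes no common direction, since Taar7b and Taar7e lay above 0 in both arms.

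Genes outside the family whose within-pool differences ran most like the mean of the Taar7 genes over the 8 pools were C1galt1c1 (r = 0.960), Cdc42ep3 (0.956) and Vmn2r4 (0.952), and for the Taar8 genes Fam181b (0.961), Lipt1 (0.961) and Klri1 (0.957). Over the levels of all 16 samples they were Tm4sf1 (0.894), Olfr247 (0.846) and Cep70 (0.837) for Taar7, and Rsad1 (0.792), Klri1 (0.774) and F8a (0.768) for Taar8. These are the highest Pearson values among all genes tested, over points that share arrays and pools. Over 8 pools, values this high can arise by chance when so many genes are compared, and likeness was not tested. The Taar7 mean joins genes on opposite sides of the gate, and the Taar8 mean holds levels near the background.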

How the data were processed

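The deposited values, 1 per probe and array, were taken as log2, a scale the labels do not state and which was inferred from their range. Per the submitters' processing notes the authors used Affymetrix Expression Console on Clariom S arrays. Its version and the background correction, normalization and summarization it applied are unstated in the labels and files. Labelling started from 50 to 100 ng of RNA. Of 28846 probes, 19572 had 1 gene symbol, 0 several and 9274 none in the platform annotation. Where a gene had several probes, as for 55 genes, the one with the highest mean was used, which left 19505 genes.

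Within-pool GFP+ minus GFP- differences of the 8 pools, and the 8 GFP+ and 8 GFP- samples, were fitted with limma 3.58.1 in R 4.3.3. P-values were two-sided and adjusted over all genes by the Benjamini-Hochberg method at a threshold of 0.05. Both arms shared 1 moderated variance per gene. The fits were tested on simulated data. Both fractions of a pool came from the same 3 mice, so they were taken as a pair. Their deviations had correlations of 0.109 to 0.249. The titles number 2 vehicle pools as 3, and the later was taken as 4. Same-numbered odor and vehicle pools had correlated deviations (0.114 to 0.242 in GFP+ samples, and for GFP- samples 0.0664 to 0.332), and the number was used as a block in an alternative. Since those pools hold different mice, the correlations within pools do not by themselves show pairing by pool. What the p-values capture is variation among pools of 3 mice, and 4 pools per arm limit the precision.

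All 8 members are named. The members and gene lists were chosen with earlier results of these data known. Sequences are from RefSeq GRCm38.p6 and were aligned with Biopython 1.88. Alternatives were median centring, quantile normalization, a filter on dim probes, every probe tested, a variance trend, variances not moderated, other ways to enter pools and numbers, and leaving pools out. A background floor and centring on neuron markers were added after seeing the data.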

Additional observations from a re-analysis of the deposited data

Results flagged for a closer look

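In 4 of 48 groups of 4 values examined for the 8 receptors, 1 sample stood far from the other 3. Chance alone puts a sample apart in about 1 in 20 such groups. Taar7d in GFP- cells of vehicle replicate 2 was at 9.98, with the others at 9.40 to 9.44. The within-pool difference of Taar7d in odor replicate 4 was -1.23, against -0.74 to -0.66 in the other odor pools. Taar7f in GFP+ cells of odor replicate 1 was at 8.93, with the others at 8.34 to 8.43. Taar8c in GFP+ cells of vehicle replicate 2 was at 5.36, against 5.88 to 5.93 in the others, all near the background. Without the pool concerned, Taar7d and Taar7f kept their calls in both arms.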

How the results depend on the processing

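The number of members called was 5 to 7 over 19 alternatives in odor pools (7 as reported) and 4 to 6 over 19 in vehicle pools (5 as reported). It was 0 in every comparison of odor with vehicle, also with the replicate number as replicate block. Entering the 16 samples without pools (no replicate block) gave 7 members in odor and 6 in vehicle pools. Over all genes, median centring called 8224 in odor pools, against 3620 as reported. The filter on dim probes left out the 3 Taar8 genes. The calls of Taar7a, Taar7d, Taar7e and Taar7f held in all 19 alternatives in each arm, and that of Taar7b in odor pools did as well. Taar8c in odor pools also lost its call without the pools numbered 3 of both arms (0.94, adjusted p = 0.0789), and Taar8b in vehicle pools gained one there (adjusted p = 0.0452), with a variance trend (adjusted p = 0.0468) and with no replicate block (adjusted p = 0.0214).

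Signs turned only where no call was made, and the cause was not tested. Without the pools numbered 3, Taar8b was at -0.48 in odor pools, the enrichment difference of Taar7d at -0.18, odor minus vehicle in GFP+ cells at -0.13 for Taar7d, -0.0259 for Taar7e and -0.0743 for Taar7f, and in GFP- cells at -0.0925 for Taar7f. With the background floor, Taar8b in odor pools was at -0.0079, Taar8c in vehicle pools at 0.0216 and Taar7a in GFP+ cells at 0.0135. Neuron marker centring put Taar8b in odor pools at -0.19. Median centring put Taar8c in vehicle pools at 0.12 and Taar7f in GFP- cells at -0.0171, and quantile normalization put Taar8c at 0.10. Without 1 pool, values ran from -0.48 to 0.61 for Taar8b in odor pools and from -0.16 to 0.19 for Taar8c in vehicle pools. For the enrichment difference they ran from -0.14 to 0.16 (Taar7d) and from -0.0844 to 0.27 (Taar7f). In GFP+ cells they ran from -0.19 to 0.14 (Taar7a), -0.15 to 0.16 (Taar7d), -0.0652 to 0.33 (Taar7e), -0.13 to 0.26 (Taar7f) and -0.32 to 0.0085 (Taar8a), and in GFP- cells from -0.11 to 0.20 (Taar7d) and -0.19 to 0.15 (Taar7f). Signal near background limits what the Taar8 genes can show.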
